A study of Mus musculus with 56 samples.

Results

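Il17rd and 9 other genes that restrain or read out signaling through the RAS and ERK kinases were followed through mammary tumor cell lines stimulated with Wnt3a or TGFβ. The 10 genes (Il17rd, Spry1, Spry2, Spry4, Spred1, Spred2, Dusp4, Dusp6, Etv4 and Etv5) were taken by name out of the 20314 genes of the deposited table, whose rows carry mouse Entrez IDs. They were chosen on measured values, namely the Wnt3a response of Il17rd in β-catenin D164A/- cells, so every Wnt3a value of Il17rd below is a description without a test. The question for the other 9 was whether they moved with it. All 10 passed the filter on low values (at least 1 CPM, reads scaled to the library total, in at least 2 of the 56 samples). Il17rd reached 1 CPM in 54 samples, Spry4 in 29 and each of the other genes in all 56.

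The lines came from mammary tumors of female MMTV-PyMT mice (FVB/N background), in which the mouse mammary tumor virus promoter drives the polyoma middle T oncogene in mammary epithelium, so every group carried this oncogene. The 7 β-catenin genotypes were fl/fl (2 floxed alleles), D164A/fl, D164A/-, ΔC/fl, ΔC/-, dm/fl and dm/-. D164A is a point mutation that removes the binding site for the coactivators Bcl9 and Bcl9L; what ΔC and dm change in the protein is not given in the sources used here, and both names are used as labels. A "/-" line was derived from its floxed counterpart by infection with an adenovirus expressing Cre and GFP and sorting of GFP-positive cells, whereas the "/fl" lines kept the floxed allele. Each genotype was left untreated or given 100 ng/ml Wnt3a for 3 days, and in a second experiment left untreated or given 2 ng/ml TGFβ for 4 days. That makes 28 conditions with 2 samples each. The labels do not say whether 2 samples of a condition came from separate lines or cultures, so the p-values measure only the spread between these samples, and genotype and cell line cannot be told apart.

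Il17rd, also called Sef, is a transmembrane protein that inhibits signaling from FGF receptors to ERK. Sprouty proteins (Spry1, Spry2 and Spry4) and the Sprouty-related Spred1 and Spred2 act on the step from receptor to RAS and RAF, while Dusp4 and Dusp6 are phosphatases that dephosphorylate MAP kinases, Dusp6 with a preference for ERK. Etv4 and Etv5 are ETS transcription factors of the PEA3 group. Most of these genes are themselves transcribed when the ERK pathway is active, which makes their RNA a commonly used readout of the pathway as well as its negative feedback. β-catenin, the transducer of canonical Wnt signaling, works at DNA through TCF/LEF factors.

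Il17rd (Entrez 171463) lies on chromosome 14 at chr14:27038964-27107286, Spry2 (24064) at chr14:105891947-105896819, Dusp6 (67603) at chr10:99263231-99267489 and Etv5 (104156) at chr16:22381313-22439570 (GRCm38). Bases upstream of the annotated RefSeq start (GRCm38.p6) are shown for Il17rd, the gene that rose with Wnt3a, and for Dusp6 and Etv5, the 2 genes with the largest falls, because these are the members whose RNA moved in opposite directions. The Il17rd stretch is chr14:27038751-27038963 (plus strand, 213 bases, ending before the first annotated base of the gene), the Dusp6 stretch chr10:99262981-99263230 (plus strand, 250 bases) and the Etv5 stretch chr16:22439571-22439820 (minus strand).
Il17rd: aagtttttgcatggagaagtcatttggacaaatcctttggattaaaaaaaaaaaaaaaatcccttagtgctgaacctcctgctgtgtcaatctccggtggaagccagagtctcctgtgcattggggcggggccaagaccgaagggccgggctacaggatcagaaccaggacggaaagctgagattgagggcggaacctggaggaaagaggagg
Dusp6: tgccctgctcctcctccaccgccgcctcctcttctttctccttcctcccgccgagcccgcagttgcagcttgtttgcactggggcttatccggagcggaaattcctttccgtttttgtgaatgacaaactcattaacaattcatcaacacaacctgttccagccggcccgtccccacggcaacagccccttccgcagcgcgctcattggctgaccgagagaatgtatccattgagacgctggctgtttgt
Etv5: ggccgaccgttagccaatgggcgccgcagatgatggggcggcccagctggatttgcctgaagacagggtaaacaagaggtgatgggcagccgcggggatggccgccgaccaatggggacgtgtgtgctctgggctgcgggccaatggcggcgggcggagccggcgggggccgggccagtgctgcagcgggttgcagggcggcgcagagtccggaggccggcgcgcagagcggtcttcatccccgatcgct
Promoter windows of 300 bases (250 before to 50 after the start) were found for 7 of the 10 genes, 8 windows in all, with 2 for Etv5; Spry4, Dusp4 and Etv4 had none. The TCF/LEF core CTTTGAT, the ETS core CGGAAGT and the AP-1 core TGANTCA were searched on both strands; the TCF/LEF and AP-1 cores can share the letters TGA and T. None of the 8 windows held any of these letters, so no base is printed in capitals. Of all 32851 windows, 3.73% held the TCF/LEF core, 6.42% the ETS core and 7.81% the AP-1 core.

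The libraries held between 22.4 M and 33.7 M reads (M, mega) assigned to genes, and 1 read was worth 0.0306 to 0.0486 CPM. The nearest library by correlation was one of the same genotype for all 56 samples. One library stood apart, the untreated dm/fl replicate 1 of the Wnt3a experiment, whose best correlation was 0.877 against 0.914 to 0.995 for the others. Axin2, a direct Wnt target used here as the check of the Wnt3a labels, rose in 6 genotypes by 2.84 to 5.98 on the log2 scale and stayed between 0 and 0.0791 CPM in dm/- cells, with and without Wnt3a. Ctnnb1, the gene that carries the mutations, lay between 531 and 3190 CPM, and counts over the whole gene do not resolve the alleles. Of the epithelial markers, Epcam, Krt8, Krt18 and Cdh1 were at 49.9 CPM or more in every sample. Krt14 and Cldn4 fell to 7.99 and 1.47 CPM in their lowest samples. Krt19 and Krt5 fell to 0, with medians of 0 and 0.901 CPM and highest values of 55.0 and 974 CPM. Ptprc, Adgre1 and Cd3e of the leukocyte list, Thy1 and Lum of the fibroblast list and Kdr, Tek and Vwf of the endothelial list stayed under 1 CPM throughout. Other genes of these lists were high in some samples, with up to 494 CPM for Pdgfrb, 302 for Pdgfra and 184 for Col3a1 (fibroblast) and 530 for Csf1r and 364 for Cd14 (leukocyte), and the endothelial sum, nearly all of it Cdh5, reached 35.2 CPM.

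Il17rd rose with Wnt3a in both D164A lines and not only after removal of the floxed allele. In D164A/- cells it was at 1.31 and 2.15 CPM untreated and at 19.7 and 37.1 CPM with Wnt3a. In D164A/fl cells it was at 4.45 and 4.00 CPM untreated and at 75.5 and 57.8 CPM with Wnt3a, the highest level of any condition. In both lines every treated sample lay above every untreated sample. The log2 fold changes were 3.38 and 3.68. The response of D164A/- cells minus that of D164A/fl cells was -0.30. Both treated D164A/- samples lay below both treated D164A/fl samples.

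In the other 5 genotypes the Il17rd groups overlapped under Wnt3a. The log2 fold change was 0.11 in fl/fl, 0.44 in ΔC/fl, 0.49 in ΔC/-, 0.15 in dm/fl and 0.03 in dm/- cells. The value in ΔC/- cells hung on single libraries, because replicate 1 was high in both states (9.86 untreated and 12.9 treated) and replicate 2 low (2.12 and 3.84 CPM). Within each replicate number the treated sample was the higher one, but the labels tie samples by number only. Leaving out one ΔC/- library at a time gave 1.39 without untreated replicate 1, 1.25 without treated replicate 2, -0.26 without treated replicate 1 and -0.41 without untreated replicate 2. With Wnt3a, Axin2 was at 85.8 ± 49.2 in fl/fl, 83.8 ± 23.2 in ΔC/fl and 115 ± 17.3 CPM in dm/fl cells (SD, n = 2). In D164A/- cells it was at 67.6 ± 39.2 CPM. Mean Il17rd was between 4.31 and 7.88 CPM in treated fl/fl, ΔC/fl and dm/fl cells. Axin2 also rose in ΔC/- cells, where mean Il17rd was 8.35 CPM with Wnt3a. A link between Axin2 and Il17rd was not tested.

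**Figure D1:**
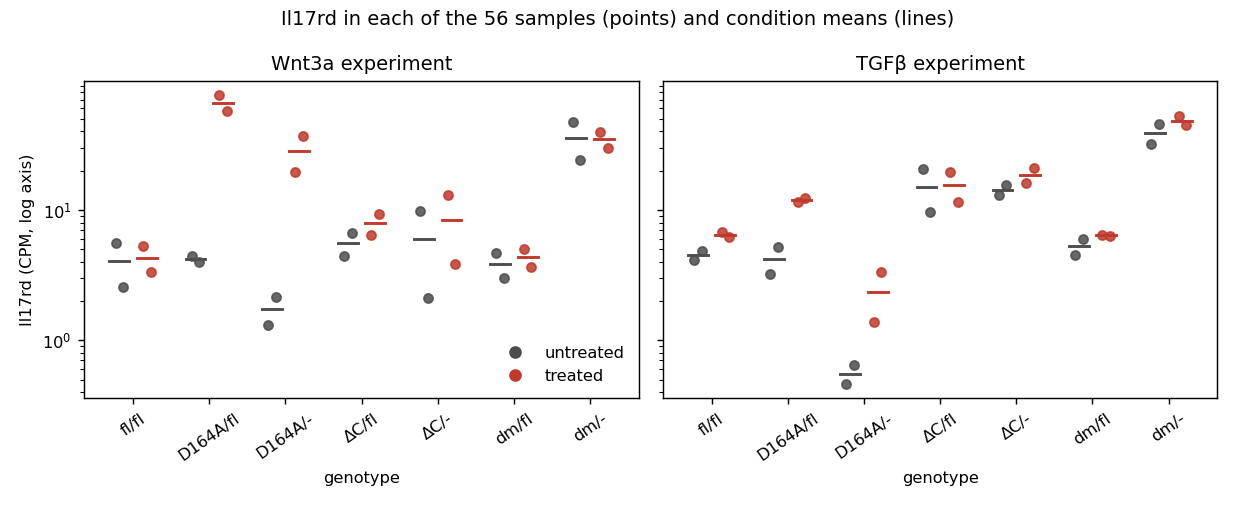
Il17rd in CPM on a log axis for each of the 56 samples, by genotype, with untreated samples in grey and treated samples in red; lines are condition means. In the Wnt3a experiment the D164A/fl and D164A/- samples separate by state (4.00 to 4.45 against 57.8 to 75.5 CPM, and 1.31 to 2.15 against 19.7 to 37.1 CPM), while dm/- cells are high in every condition.

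Across all 28 conditions Il17rd ranged from 0.555 ± 0.130 CPM (SD, n = 2) in untreated D164A/- cells of the TGFβ experiment to 66.7 ± 12.5 CPM in Wnt3a-treated D164A/fl cells. The 4 dm/- conditions (34.9 to 48.5 CPM) and Wnt3a-treated D164A/- cells (28.4 ± 12.3 CPM) came next below the top, followed by the 4 ΔC conditions of the TGFβ experiment (14.3 to 18.5 CPM). Ordered by mean, 24 of the 27 neighbouring pairs of conditions had overlapping ranges. The 3 steps without overlap were between untreated D164A/- cells of the TGFβ experiment and those of the Wnt3a experiment, between TGFβ-treated D164A/fl cells (11.9 ± 0.651 CPM) and untreated ΔC/- cells, and between TGFβ-treated dm/- cells (48.5 ± 5.06 CPM) and the top condition.

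In the main limma fit, none of the other 9 genes was called higher with Wnt3a in any genotype, and those called were lower. In D164A/fl cells 4 of 9 fell, Dusp6, Etv5, Spry4 and Spry2, where 4.15% of all genes tested were called in either direction. The median log2 fold change of the 9 was -1.59, against -0.035 over all genes tested. The test was passed where limma's adjusted p did not exceed 0.05 and the change was 1 or more in either direction on log2(CPM + 1), a scale on which changes of low genes are understated.

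Dusp6, the ERK phosphatase, was at 339 and 255 CPM in untreated D164A/fl cells and at 39.7 and 27.0 CPM with Wnt3a. The log2 fold change was -3.13 (SE 0.38; limma, adjusted p = 2.54e-07). Etv5 was at 148 and 149 CPM untreated and at 17.7 and 13.6 CPM treated (-3.18, SE 0.50; adjusted p = 2.69e-05). Both genes thus came down in D164A/fl cells to the range of untreated fl/fl cells, where Dusp6 was at 42.6 and 21.2 and Etv5 at 25.4 and 7.36 CPM. Spry4 was at 29.1 and 11.4 CPM untreated and at 2.03 and 1.12 CPM treated (-2.93, SE 0.37; adjusted p = 4.62e-07). Spry2 went from 36.2 and 38.9 to 11.0 and 10.8 CPM (-1.70, SE 0.27; adjusted p = 3.57e-05). For all 4 genes the treated and untreated samples did not overlap. Here and below, such separation of 2 against 2 samples describes the values that the tests used and adds no support of its own. Etv4 was also separated, at 49.5 and 77.1 CPM untreated and 18.8 and 20.9 CPM treated, but did not pass the test (-1.59, SE 0.57; adjusted p = 0.125).

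In D164A/- cells, the line for which Il17rd was chosen, only Spry4 fell of the 9 genes (limma, 0 with edgeR), where 0.654% of all genes were called with limma and 21 of 13754 with edgeR. The median of the 9 was -0.56, against 0 over all genes tested. Spry4 was at 19.4 and 13.3 CPM untreated and at 7.77 and 2.15 CPM with Wnt3a, again without overlap (-1.70, SE 0.37; limma, adjusted p = 0.0113). This call did not stand with a pseudocount of 0.1 CPM or with edgeR, nor without untreated replicate 1 (-1.44, adjusted p = 0.376) or treated replicate 2 (-0.96, adjusted p = 1). Dusp6 (168 and 113 to 71.9 and 38.2 CPM), Etv5 (126 and 112 to 70.2 and 30.3 CPM) and Spry2 (35.5 and 35.7 to 21.1 and 15.9 CPM) were lower in both treated samples than in both untreated ones. Their log2 fold changes of -1.38, -1.34 and -0.92 did not pass the test (adjusted p = 0.0943, 0.57 and 0.161). Without treated replicate 1, Dusp6 passed (-1.83, adjusted p = 0.0305). Treated replicate 2 had the lower Dusp6, Etv5, Spry4 and Spry2 of the pair and also the higher Il17rd (37.1 CPM) and the higher Axin2 (95.3 against 39.9 CPM). Untreated replicate 2 likewise had the lower Dusp6, Etv5 and Spry4 and the higher Il17rd (2.15 against 1.31 CPM), but not the lower Spry2. Over all genes tested, the differences between replicates 1 and 2 correlated at 0.89 between untreated and treated D164A/- cells, so many genes shifted with the replicate number. A link of Il17rd or Axin2 with the other genes was not tested.

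**Figure D2:**
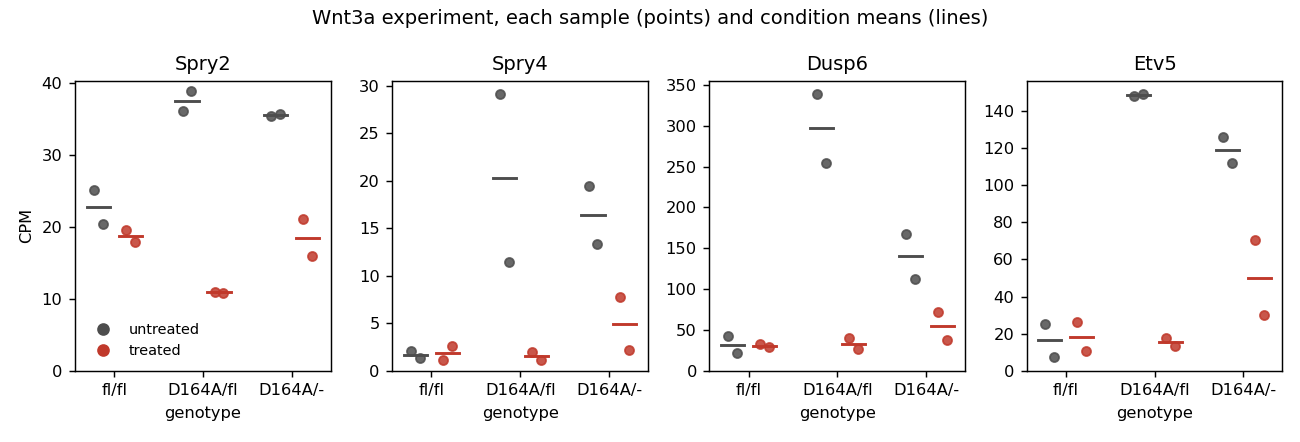
CPM of Spry2, Spry4, Dusp6 and Etv5 in the Wnt3a experiment for fl/fl, D164A/fl and D164A/- cells; points are samples (2 per state), lines are means, grey untreated and red treated. The untreated D164A samples of Dusp6 (113 to 339 CPM) and Etv5 (112 to 149 CPM) lie above all fl/fl samples, and come down to 27.0 to 39.7 and 13.6 to 17.7 CPM in treated D164A/fl cells. Treated Spry2 in D164A/fl cells (10.8 to 11.0 CPM) lies below all fl/fl samples (17.9 to 25.1 CPM).

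In the remaining 5 genotypes none of the 9 genes was called with limma or with edgeR. The number at an unadjusted p under 0.05 was 2 in fl/fl, 1 in ΔC/fl and 0 in ΔC/-, dm/fl and dm/- cells. Of all 13754 genes, 1871, 359, 367, 2300 and 29 were at such a p, in the same order. The share of all genes called with limma was 0.378% in fl/fl, 0.225% in ΔC/fl, 0.0509% in ΔC/-, 0.574% in dm/fl and 0% in dm/- cells. With edgeR, 7, 15, 2, 14 and 0 of all genes were called, so few genes of any kind passed there. The largest of these values was that of Spry1 in fl/fl cells, at 9.12 and 4.29 CPM untreated and 23.5 and 16.0 CPM treated (1.48, SE 0.51; adjusted p = 0.206). Spry1 also had higher treated than untreated samples in D164A/fl (58.3 and 47.9 to 109 and 79.8 CPM) and in D164A/- cells (13.3 and 19.0 to 26.0 and 44.0 CPM), with log2 fold changes of 0.81 and 1.04 that did not pass. Its treated samples lay above the untreated ones in ΔC/fl (means 24.5 untreated and 36.8 CPM treated, 0.58) and ΔC/- cells (61.1 and 86 CPM, 0.46), again without passing. In dm/fl and dm/- cells its states overlapped (-0.07 and 0.76). Spred1 in dm/fl cells was called only without untreated replicate 2 (1.85, adjusted p = 0.0035), which leaves the library that stood apart, at 22.5 CPM, as the only untreated sample.

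**Figure D3:**
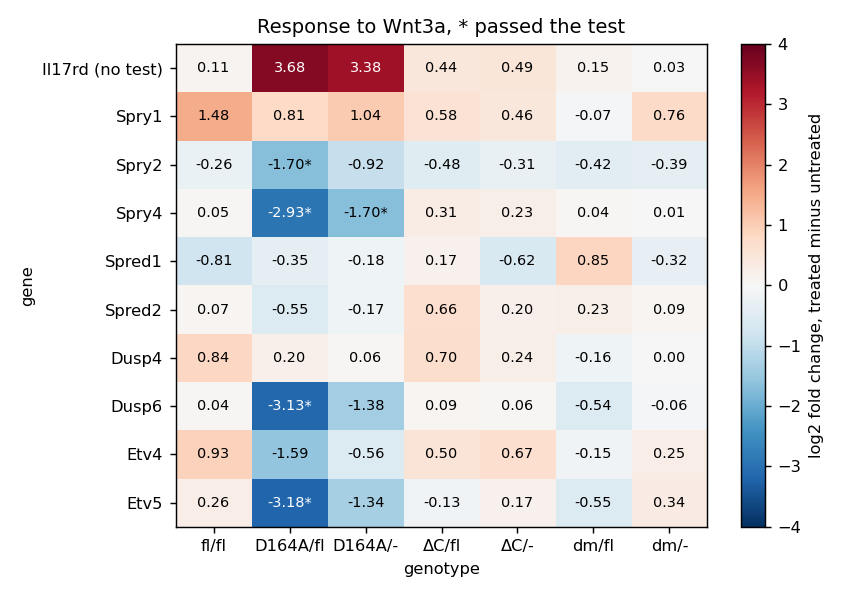
Log2 fold change of the 10 genes (rows) with Wnt3a in each genotype (columns), red higher and blue lower in treated cells, with an asterisk where the test was passed; Il17rd was not tested. The asterisks are in D164A/fl (Spry2, Spry4, Dusp6 and Etv5) and in D164A/- cells (Spry4), and Il17rd is at 3.68 and 3.38 in these columns and at 0.03 to 0.49 elsewhere.

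The test of the difference between genotypes was weaker. None of the 9 genes passed the test for a Wnt3a response in D164A/- cells that differed from that of fl/fl cells (0 with limma, 3 at an unadjusted p under 0.05), where 0.24% of all genes were called. Of all genes, 483 were at such a p for this difference. edgeR called 0 of all 13754 genes for this difference and for the next, so its 0 of 9 says nothing about these genes. The differences for Spry4, Dusp6 and Etv5 were -1.74 (95% interval -2.80 to -0.69), -1.41 (-2.51 to -0.32) and -1.60 (-3.04 to -0.16). Without treated D164A/- replicate 1 the Spry4 difference passed (-2.48, limma, adjusted p = 0.00996). Between D164A/- and D164A/fl cells, too, none passed (0 with limma, 3 at an unadjusted p under 0.05), where 0.974% of all genes were called and 523 were at such a p. The response in D164A/- cells was smaller by 1.75 for Dusp6 (95% interval of the difference 0.65 to 2.84), by 1.84 for Etv5 (0.39 to 3.28) and by 1.23 for Spry4 (0.18 to 2.29). Without treated D164A/- replicate 2 the latter passed (1.97, adjusted p = 0.0444).

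The corresponding difference between D164A/fl and fl/fl cells was computed after these values had been seen. By limma, 4 of the 9 genes differed, all with the lower response in D164A/fl cells, where 2.12% of all genes were called. The differences were -3.16 for Dusp6 (adjusted p = 0.000224), -2.98 for Spry4 (0.000324), -3.44 for Etv5 (0.00267) and -1.44 for Spry2 (0.0341). Untreated Spry4 was at 1.3 to 2.11 CPM in fl/fl cells over both experiments, which leaves little room for a fall there on log2(CPM + 1). With edgeR 2 of the 4 passed, Dusp6 and Etv5, where edgeR called 28 of all 13754 genes. The Etv5 call was lost without untreated fl/fl replicate 2 (-2.61, adjusted p = 0.0679), and the Spry2 call was lost in 7 of 8 fits that left out one library (-1.29 to -1.50), with median-of-ratios scaling and with the GC trend removed. None of the 4 passed in a fit on only the samples compared, which called 37 of all 13754 genes against 292 in the main fit.

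Sums of cell type markers overlapped between the states in D164A/fl cells. In D164A/fl cells the 8 epithelial markers summed to 2910 to 6080 CPM untreated and 4900 to 6060 CPM treated, the 8 fibroblast markers to 54.3 to 67.9 and 54.6 to 58.0, the 8 leukocyte markers to 162 to 370 and 180 to 198, and the 5 endothelial markers to 1.11 to 1.62 and 0.982 to 1.28. In D164A/- cells they were 2250 to 3830 and 2530 to 3860, 70.4 to 84.7 and 50.8 to 64.0, 154 to 302 and 163 to 246, and 0.219 to 0.507 and 0.441 to 0.584 CPM. The fibroblast sum was thus lower in treated than in untreated D164A/- cells. Of the single markers, Csf1r rose in D164A/fl cells (1.19 to 13.7 CPM in the mean, 2.80; limma, adjusted p = 0.00229), while Ptprc and Adgre1 were at or near 0. The part of these markers in the results was not tested.

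Before any treatment, the D164A lines already differed from fl/fl cells in Dusp6, Etv5 and Spry4. Dusp6, Etv5 and Spry4 were higher in D164A/- than in fl/fl cells in both experiments. Over the 4 untreated samples of a genotype, Dusp6 had a median of 157 CPM in D164A/- (113 to 204) and 220 CPM in D164A/fl (111 to 339) against 38.3 CPM in fl/fl cells (21.2 to 50.1). Etv5 had medians of 137 (112 to 165), 114 (61.6 to 149) and 20.0 CPM (7.36 to 37.3). Spry4 had medians of 19.0 (13.3 to 23.5), 34.5 (11.4 to 44.9) and 1.89 CPM (1.30 to 2.11). For all 3 genes the fl/fl range lay below that of both D164A genotypes. In the ΔC and dm lines Spry4 was near the limit of detection, with medians of 0.0661 to 0.485 CPM, where 3 reads are worth 0.092 to 0.146 CPM.

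In the TGFβ experiment, D164A/- minus fl/fl differences were 2.93 for Spry4 (limma, adjusted p = 9.79e-08), 2.04 for Dusp6 (7.62e-05), 2.69 for Etv5 (7.60e-05) and -1.82 for Il17rd (0.00359), so that 4 of 10 genes were called where 19.4% of all genes were. In the Wnt3a experiment 4 of 9 were called, where 17.1% of all genes were. There Spry4 differed by 2.67 (adjusted p = 6.83e-07), Dusp6 by 2.16 (3.97e-05), Etv5 by 3.01 (1.66e-05) and Dusp4 by 2.13 (0.000145). Dusp4 and Spred2 did not pass in the TGFβ experiment (0.85, adjusted p = 0.142, and -0.92, adjusted p = 0.0103 with a change under the threshold). Without untreated fl/fl replicate 1 Dusp4 passed (1.38, adjusted p = 0.0459), and without replicate 2 Spred2 did (-1, adjusted p = 0.0295). For Il17rd, untreated D164A/- cells were at 0.463 and 0.647 CPM and fl/fl cells at 4.15 and 4.83 CPM. The fibroblast marker sum also differed in these untreated samples, at 95.0 to 105 CPM in D164A/- and 5.58 to 11.2 CPM in fl/fl cells, and its part was not tested.

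D164A/- and D164A/fl cells differed from each other in other members. In the TGFβ experiment 4 of 10 genes were lower in D164A/- cells, where 16.5% of all genes were called in either direction. Spry1 was at 4.90 and 10.7 CPM against 31.6 and 53.3 CPM in D164A/fl cells (-2.34; limma, adjusted p = 0.00071), and Spred2 at 22.1 and 20.8 against 65.9 and 55.5 CPM (-1.45, adjusted p = 0.000103). Il17rd was lower by -1.72 (adjusted p = 0.00695) and Spry2 by -1.11 (adjusted p = 0.00254). The Il17rd call was lost without D164A/- replicate 1 (-1.64, adjusted p = 0.065) or D164A/fl replicate 2 (-1.44, adjusted p = 0.0929), and the Spry2 call without D164A/fl replicate 1 (-0.79, adjusted p = 0.12). In the Wnt3a experiment none of the 9 genes was called (0 with limma and with edgeR, 2 at an unadjusted p under 0.05), where 3.21% of all genes were. Of all 13754 genes, 1392 were at such a p and edgeR called 389. The differences there were -1.67 for Spry1 (adjusted p = 0.0569) and -0.53 for Spred2 (adjusted p = 0.544).

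Dusp4, the nuclear MAP kinase phosphatase, was higher in both "/-" lines of the ΔC and dm pairs. In the TGFβ experiment ΔC/- cells had 127 and 103 CPM against 62.0 and 29.3 CPM in ΔC/fl cells (1.40; limma, adjusted p = 0.0146), and Dusp6 was lower, at 13.4 and 22.7 against 68.1 and 50.3 CPM (-1.69, adjusted p = 0.00142). These were 2 of 10 genes where 12% of all genes were called. Without ΔC/- replicate 1 neither passed (1.25, adjusted p = 0.139, and -1.33, adjusted p = 0.0648), and without ΔC/fl replicate 2 Dusp4 did not (0.87, adjusted p = 0.315). In the Wnt3a experiment Dusp4 alone of the 9 genes was called (77.3 and 72.4 against 18.1 and 20.6 CPM, 1.90, adjusted p = 0.00142), where 8.16% of all genes were.

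In the dm pair Il17rd was higher in the "/-" line. In the TGFβ experiment Il17rd was at 32.2 and 45.6 CPM in dm/- and at 4.51 and 5.99 CPM in dm/fl cells (2.67; limma, adjusted p = 5.12e-05). Dusp4 was higher too (174 and 113 against 27.7 and 28.9 CPM, 2.27, adjusted p = 6.69e-05) and Spry1 lower (13.5 and 6.33 against 75.2 and 54.3 CPM, -2.65, adjusted p = 0.000143), which makes 3 of 10 genes where 16.1% of all genes were called. In the Wnt3a experiment Il17rd was at 47.2 and 24.2 CPM in dm/- and at 4.67 and 3.01 CPM in dm/fl cells, given as a description. Of the 9 other genes 2 were called, where 16.5% of all genes were. Spry1 differed by -2.91 (adjusted p = 4.98e-05) and Dusp4 by 1.97 (adjusted p = 0.000511). Without the dm/fl library that stood apart these values were -2.00 (adjusted p = 0.0113) and 2.71. Without dm/fl replicate 2 Spred1 was called as well (1.78, adjusted p = 0.00398).

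Fibroblast markers moved with these ΔC and dm differences. In both experiments 4 of the 6 tested fibroblast markers were lower in the "/-" line, with a median of -2.79 and -2.23 for the ΔC pair and of -3.09 and -2.87 for the dm pair (TGFβ and Wnt3a experiment). In the TGFβ experiment the fibroblast sum was 321 to 779 CPM in ΔC/fl and 9.5 to 9.98 CPM in ΔC/- cells, and 332 to 554 CPM in dm/fl and 7.06 to 8.06 CPM in dm/- cells. The leukocyte sum was 361 to 454 CPM in dm/fl and 88.6 to 98.9 CPM in dm/- cells. Their part in the Il17rd, Dusp4, Dusp6 and Spry1 values was not tested.

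**Figure D4:**
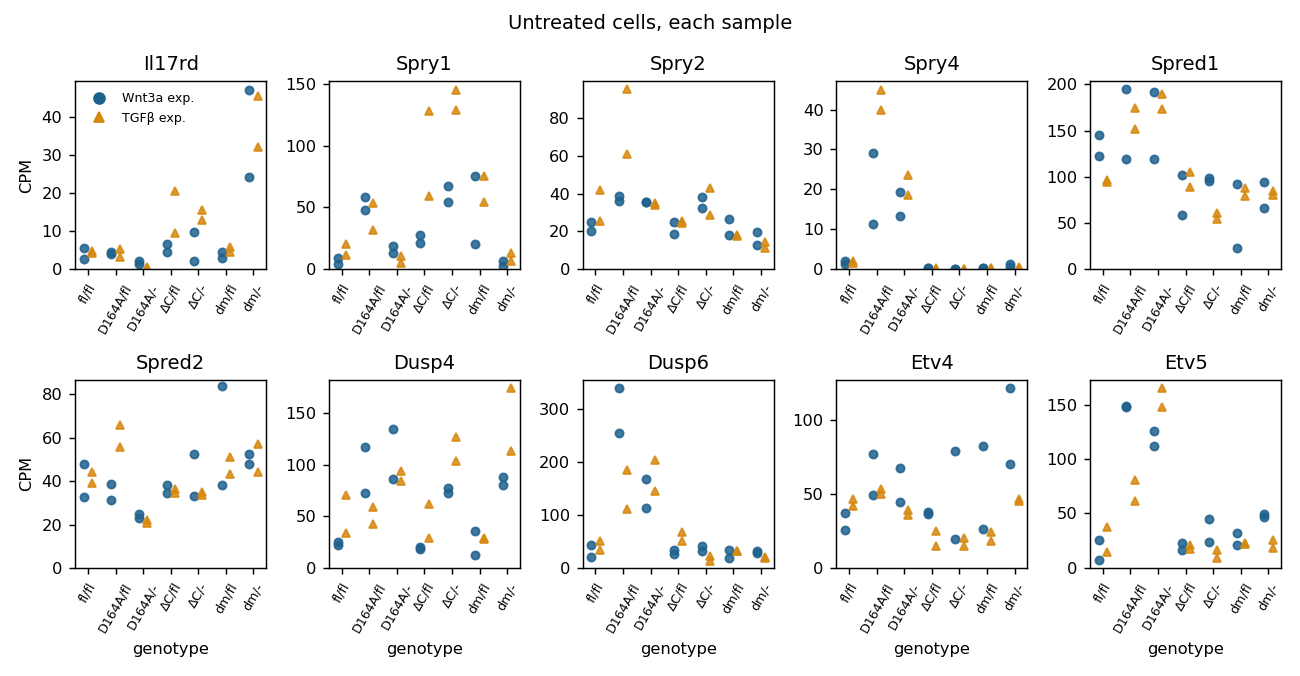
CPM of the 10 genes in the 28 untreated samples by genotype, with circles for the Wnt3a experiment and triangles for the TGFβ experiment, each panel on its own axis from 0. Dusp6, Etv5 and Spry4 are high in D164A/fl and D164A/- cells, Il17rd in dm/- cells (24.2 to 47.2 CPM), and Dusp4 is higher in ΔC/- and dm/- cells (72.4 to 174 CPM) than in ΔC/fl and dm/fl cells (12.0 to 62.0 CPM).

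Compared per length of the longest annotated transcript, Il17rd and Spry4 were the lowest of the 10 genes in untreated cells, with medians over 28 samples of 0.574 and 0.102 CPM per kilobase. Dusp4 (26.0), Etv4 (16.9), Spred1 (16.0), Spry2 (12.5) and Dusp6 (12.2 CPM per kilobase) had the highest medians.

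With TGFβ, Spry4 rose in fl/fl and ΔC/fl cells, Dusp4 rose in fl/fl cells, Spry1 fell in ΔC/fl and ΔC/- cells and Spry2 fell in ΔC/- and dm/- cells. In fl/fl cells Spry4 and Dusp4 rose, 2 of 10 genes where 6.25% of all genes were called. Spry4 was at 1.69 and 2.10 CPM untreated and 15.5 and 16.4 CPM treated (2.55, SE 0.37; limma, adjusted p = 5.77e-06). Dusp4 was at 70.5 and 33.5 CPM untreated and at 181 and 100 CPM treated (1.45, SE 0.41; adjusted p = 0.0215), a call lost without treated replicate 1 (1.02, adjusted p = 0.412) or untreated replicate 2 (0.92, adjusted p = 0.459). In ΔC/fl cells Spry4 rose as well, from 0.280 and 0.190 to 6.32 and 4.85 CPM (2.41, adjusted p = 1.57e-05). Spry4 did not pass the test in the D164A lines, where it was at 44.9 and 39.8 CPM untreated and 22.9 and 38.8 CPM treated in D164A/fl cells, and at 18.7 and 23.5 and at 11.2 and 14.3 CPM in D164A/- cells.

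In ΔC/fl cells, where Spry4 rose, Spry1 went from 128 and 59.2 to 29.8 and 26.1 CPM (-1.61; limma, adjusted p = 0.037), which with Spry4 made 2 of 10 genes where 7.74% of all genes were called. The Spry1 call was lost without untreated replicate 1 (-1.06), treated replicate 1 (-1.70) or treated replicate 2 (-1.52). In ΔC/- cells Spry1 went from 145 and 129 to 39.6 and 45.4 CPM (-1.67, adjusted p = 0.0328) and Spry2 from 42.9 and 28.8 to 14.3 and 17.5 CPM (-1.11, adjusted p = 0.00661), 2 of 10 where 6.55% of all genes were called. The former was lost without any one of the 4 libraries (-1.57 to -1.76) and in edgeR, the latter without untreated replicate 1 (-0.83) or treated replicate 1 (-0.97). In dm/- cells Spry2 went from 14.4 and 11.5 to 5.72 and 5.39 CPM (-1.08, adjusted p = 0.00842), 1 of 10 where 6.12% of all genes were called. It was lost without untreated replicate 1 (-0.93) or treated replicate 2 (-1.05), and with the GC trend removed.

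In D164A/fl, D164A/- and dm/fl cells no gene of the 10 was called with limma, where 3.38%, 4.06% and 10.3% of all genes were. At an unadjusted p under 0.05 there were 1960, 1682 and 2864 of all genes, and edgeR called 376, 551 and 1443. Of the 10 genes, 4, 2 and 4 were at such a p, and edgeR called 0, 1 and 0. The gene called by edgeR was Il17rd in D164A/- cells, at 0.463 and 0.647 CPM untreated and at 1.37 and 3.34 CPM with TGFβ, with a log2 fold change of 2.08 in edgeR (adjusted p = 0.0453) and 1.04 in limma (adjusted p = 0.322). In D164A/fl cells Il17rd was at 3.22 and 5.21 CPM untreated and at 11.5 and 12.4 CPM treated, without overlap (1.34, adjusted p = 0.118). In dm/fl cells 3 genes passed when one library was left out. These were Spry1 without treated replicate 1 (-2.09, adjusted p = 0.0204), and Spred2 (1.15, adjusted p = 0.0191) and Dusp4 (1.53, adjusted p = 0.0467) without treated replicate 2.

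Several values separated the states without passing. Spred2 was at 44.0 and 39.0 CPM untreated and 73.9 and 80.6 CPM with TGFβ in fl/fl cells (0.88; limma, adjusted p = 0.0374, a change under the threshold), and Etv4 at 14.5 and 20.3 and at 48.0 and 74.7 CPM in ΔC/- cells (1.75, adjusted p = 0.0512). Spred2 in dm/fl cells had a change of 0.82 (adjusted p = 0.0385). Spry1 had one of -1.45 in dm/fl cells (adjusted p = 0.0554) and, in the other direction, of 1.54 in D164A/- cells (4.90 and 10.7 to 21.3 and 25.0 CPM, adjusted p = 0.0819). The median log2 fold change of the 10 genes was 0.88 in fl/fl and -0.29 in D164A/- cells, against -0.028 and 0 over all genes tested.

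Marker sums also moved with TGFβ. In fl/fl cells the fibroblast sum went from 5.58 to 11.2 CPM untreated to 30.4 to 32.9 CPM treated, the leukocyte sum from 117 to 157 to 239 to 306 CPM and the endothelial sum from 0.262 to 0.322 to 2.97 to 3.71 CPM, each without overlap. In ΔC/fl cells the epithelial sum was 2250 to 3050 CPM untreated and 1460 to 1680 CPM treated. In ΔC/- cells it was 2920 to 3220 and 5610 to 9960 CPM, and the fibroblast sum 9.5 to 9.98 and 25.8 to 26.3 CPM. In dm/- cells the fibroblast sum was 7.06 to 8.06 and 37.5 to 127 CPM. In D164A/- cells the epithelial sum was 1910 to 2180 and 2730 to 2810 CPM, and both treated leukocyte sums (59.5 and 60.3 CPM) were below the untreated ones (at least 99.2 CPM). The part of these markers in the TGFβ values was not tested.

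The TGFβ response of D164A/- cells differed from that of fl/fl cells for 2 of the 10 genes, where 4.28% of all genes were called. Spry4 had a difference of -3.23 (SE 0.52; limma, adjusted p = 7.2e-05), with treated samples above untreated ones in fl/fl and below them in D164A/- cells. The starting levels differed, with untreated Spry4 over both experiments at 1.3 to 2.11 CPM in fl/fl and 13.3 to 23.5 CPM in D164A/- cells. Dusp4 had one of -2.06 (SE 0.58, adjusted p = 0.031), with untreated and treated D164A/- cells at 93.4 and 84.3 and at 48.7 and 68.5 CPM. The Dusp4 call was lost in edgeR, and without treated fl/fl replicate 1 (-1.63), untreated fl/fl replicate 2 (-1.53), untreated D164A/- replicate 1 (-1.99) or replicate 2 (-2.13) or treated D164A/- replicate 1 (-1.82).

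**Figure D5:**
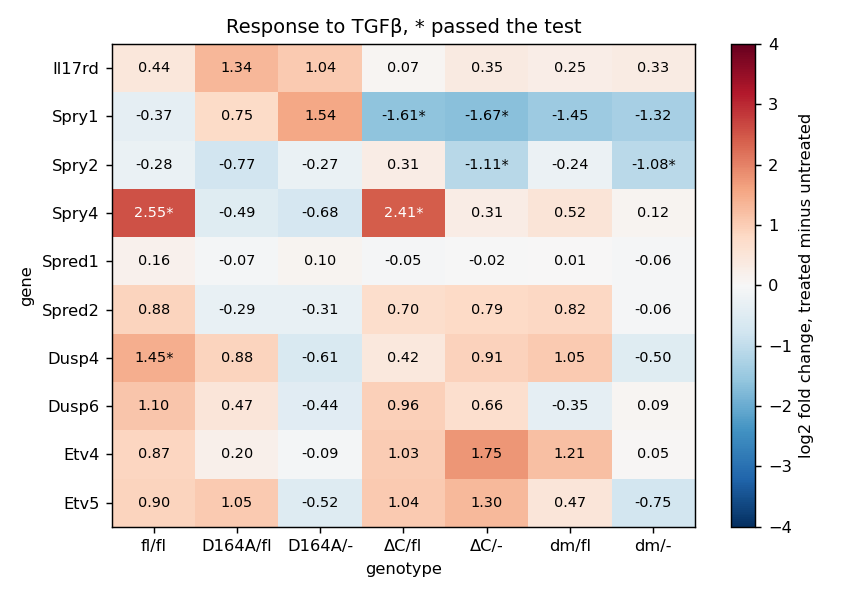
Log2 fold change of the 10 genes (rows) with TGFβ in each genotype (columns), red higher and blue lower in treated cells, with an asterisk where the test was passed. Spry4 is at 2.55 in fl/fl and 2.41 in ΔC/fl cells, and at -0.49 and -0.68 in D164A/fl and D164A/- cells; Spry1 is at -1.61 and -1.67 in the ΔC lines.

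Other genes of the pathway were read from lists chosen with earlier results of these data known. In Wnt3a-treated D164A/- cells none passed the test among 31 further ERK feedback and target genes (1 at an unadjusted p under 0.05), 19 FGF ligands, receptors and partners (0), 15 EGF family ligands and receptors (2), 20 members of the RAS to ERK cascade (0) and 4 further interleukin 17 receptors (0), and edgeR called none. Few genes of any kind passed in these cells, 0.654% of all genes with limma and 21 of 13754 with edgeR, while 498 were at such a p. The absence of calls in lists of this size therefore says little about them. The median of the ERK feedback and target list was -0.15 there and -0.65 in D164A/fl cells, against 0 and -0.035 over all genes tested. The largest values in these lists were those of Fos (0.90) and Phlda2 (-0.82), of Flrt3 (-1.13) and Fgfrl1 (-0.87), of Erbb3 (1.05) and Epgn (-0.96), of Ksr1 (0.50) and Nf1 (-0.49), and of Il17re (0.43) and Il17rb (0.22). Of 10 Wnt feedback genes 3 rose, Axin2 (5.08, limma, adjusted p = 2.13e-08), Rnf43, a ubiquitin ligase that removes Wnt receptors (9.44 and 8.53 to 22.7 and 29.9 CPM, 1.44, adjusted p = 0.00249), and Wif1, a secreted Wnt inhibitor (0.0365 and 0 to 1.59 and 1.61 CPM, 1.35). edgeR called 1 of the 10. Wif1 was the only gene of these lists that limma called for a response different from that of fl/fl cells, where no read of it was counted in any of the 4 samples (1.35, adjusted p = 0.00029); edgeR did not call it.

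In D164A/fl cells, where 4.15% of all genes were called, the genes named here were chosen after their values were seen. Areg, the EGF receptor ligand amphiregulin, fell (238 and 27.8 to 11.9 and 7.33 CPM, -3.00; limma, adjusted p = 0.00341), as did the ligand Nrg2 (3.29 to 0.0829 CPM in the mean, -1.95) and, of the ERK feedback and target list, Trib1 (135 and 105 to 50.9 and 41.1 CPM, -1.36) and Egr2 (-1.58). Errfi1, a feedback inhibitor of the EGF receptor, rose (1.21), and so did the receptor Erbb3 (1.61), Flrt2, an FGF receptor partner (2.63), and Il17rb (0.574 and 1.77 to 8.89 and 9.44 CPM, 2.28). These were 3 of 31 ERK feedback and target genes (1 higher and 2 lower), 1 of 19 FGF genes, 3 of 15 EGF family genes, 0 of 20 cascade genes (1 at an unadjusted p under 0.05, 0 in edgeR) and 1 of 4 interleukin 17 receptors, while 5 of 10 Wnt feedback genes rose. edgeR called 1 higher and 3 lower of the ERK feedback and target genes, 0 of the FGF genes, 0 higher and 2 lower of the EGF family genes and 1 of the interleukin 17 receptors, so the values of Flrt2 and Erbb3 did not pass there. Of all 13754 genes, edgeR called 394, and 1743 were at an unadjusted p under 0.05 with limma.

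Over the 28 condition means, the other 9 genes correlated with Il17rd in both directions. As a description, Pearson r of log2(CPM + 1) with Il17rd was -0.62 for Spry2, -0.42 for Dusp6, -0.38 for Spry4, -0.37 for Etv5, -0.36 for Spred1, 0.43 for Dusp4, 0.14 for Spred2, 0.02 for Etv4 and -0.04 for Spry1. Dusp6 and Spry4 (0.91) and Dusp6 and Etv5 (0.85) were close to each other. The 5 genes most like Il17rd among 12180 compared were Gabarapl1 (0.801), Supt4a (0.790), Mtmr3 (0.789), Atg13 (0.784) and Mllt6 (0.783). The points share libraries and lines, and 4 of the 28 are dm/- conditions.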

How the data were processed

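RNA was sequenced from 56 samples of β-catenin mutant mammary tumor cell lines. The authors aligned reads with STAR to mm10, counted uniquely mapped reads over RefSeq exons, and deposited CPM scaled by effective library size; the deposited signal resolves into whole reads for 100% of values (tolerance 0.001 reads), so the detection floor of 3 reads was 0.092 to 0.146 CPM. Of 20314 Entrez IDs, 20261 matched a RefSeq symbol. Here limma 3.58.1 (trend) was fitted to log2(CPM + 1) of 13754 genes over all 56 samples with 28 condition terms and 28 residual degrees of freedom, with Benjamini-Hochberg adjustment over all genes tested; it was tested on simulated data. Il17rd was not tested on Wnt3a samples. Genes were named by a rule covering the 10 genes, per list those called in D164A/- cells with Wnt3a (or the 2 with the largest change) and the 5 most like Il17rd. The genes and lists were chosen with earlier results of these data known. Alternatives were edgeR 4.0.16 on whole reads, a pseudocount of 0.1 CPM, no filter, median-of-ratios scaling, removal of the GC trend, a replicate block, fits on only the samples compared and leaving out each library.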

Additional observations from a re-analysis of the deposited data

Results flagged for a closer look

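For 6 results the difference between 2 genotypes' responses to the same cytokine passed the test of the difference itself (limma interaction term). With TGFβ, the response of D164A/- minus that of fl/fl cells was -3.23 for Spry4 (adjusted p = 7.2e-05) and -2.06 for Dusp4 (adjusted p = 0.031). With Wnt3a, the response of D164A/fl minus that of fl/fl cells, a comparison added after the values were seen, was -3.16 for Dusp6 (adjusted p = 0.000224), -2.98 for Spry4 (adjusted p = 0.000324), -3.44 for Etv5 (adjusted p = 0.00267) and -1.44 for Spry2 (adjusted p = 0.0341). Spry2 and Spry4 in the latter comparison and Dusp4 with TGFβ did not pass in edgeR, and Dusp4, Spry2 and Etv5 each lost the call without at least 1 single library. Of all 13754 genes, edgeR called 28 in the latter comparison and 292 in that with TGFβ. Untreated Spry4 was lower in fl/fl cells (1.3 to 2.11 CPM over both experiments) than in D164A/fl (11.4 to 44.9) and D164A/- cells (13.3 to 23.5). All conditions had 2 samples, so no sample could be examined as an outlier within its group.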

How the results depend on the processing

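Of the calls over the 10 genes, 5 were made for the Wnt3a response, 7 for the TGFβ response, 0 and 2 for the differences in these responses, and 13 and 7 for untreated cells of the TGFβ and Wnt3a experiments. These counts pool 7 comparisons for each response and 4 for the untreated cells of each experiment. The share of all genes called in each comparison is given above. Fits on only the 4 samples of a response gave 0 calls for Wnt3a and 3 for TGFβ, and 2 for untreated cells of the Wnt3a experiment. These responses have few residual degrees of freedom. For every Wnt3a response such a fit called 0 of all 13754 genes, so its 0 calls say nothing about the members. It also called 0 of all genes for the TGFβ response in D164A/- and ΔC/fl cells. In untreated cells of the Wnt3a experiment it called 0 for D164A/- minus D164A/fl and for the ΔC and dm pairs. Calls missing in these comparisons likewise say nothing about the members. edgeR gave 1 call for the difference in TGFβ response, where it called 292 of all genes against 589 in the main fit. With a replicate block, counts were 9, 19, 2 and 6 for the Wnt3a response, the TGFβ response and the 2 differences. With the GC trend removed as well they were 9, 18, 1 and 7. Over all genes the block alone also raised the Wnt3a calls, from 52 to 857 in fl/fl and from 90 to 151 in D164A/- cells. The TGFβ difference went from 589 to 1049. The labels tie samples by number only. Replicate deviations correlated from -0.07 to 0.93 for the Wnt3a and from -0.2 to 0.66 for the TGFβ responses. Between untreated genotypes they correlated from -0.12 to 0.3 (TGFβ experiment) and from -0.55 to 0.78 (Wnt3a experiment). With the block alone, the calls added for Wnt3a were Spry1 in fl/fl (1.48), Etv4 in D164A/fl (-1.59) and Dusp6 and Etv5 in D164A/- cells (-1.38 and -1.34), and both calls of the Wnt3a difference, Dusp6 (1.75) and Etv5 (1.84), were for D164A/- minus D164A/fl cells. Crossing the numbers where that correlation was under -0.1, an alternative chosen after seeing the data, left 2, 3, 4 and 2 calls over these genes in the 4 comparisons concerned, as without a block. Leaving out one library at a time gave 4 to 6, 5 to 9, 0 to 1, 1 to 2, 11 to 14 and 7 to 10 calls in the order above. The other settings (pseudocount of 0.1 CPM, no filter, median of ratios, GC trend) kept these counts within 1.5 times, and no call reversed its sign. Il17rd with Wnt3a ranged from 3.49 to 3.98 in D164A/fl and from 2.94 to 4.04 in D164A/- cells. For the added comparison of D164A/fl with fl/fl cells, Spry2 was lost with median-of-ratios scaling, GC removal and edgeR, Spry4 with edgeR, and all 4 calls in a fit on only the samples compared. Over all genes, the calls for this comparison went from 292 to 28 in edgeR and to 37 in that fit. Depth limits Spry4 in ΔC/- cells, whose untreated samples lay under the level of 3 reads.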
